A study of Arvicanthis niloticus with 5 samples.

Results

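Glaucoma genes of the aqueous outflow tract and the optic nerve were examined in the eye transcriptome of the Nile rat (Arvicanthis niloticus), a day-active African rodent. The set was Myoc, Optn, Cyp1b1, Wdr36, Tmco1, Cav1, Cav2 and Tbk1, chosen by symbol, without regard to case, in any species column of the deposited ortholog table. All 8 were found, among 13982 named genes in all. Only 15454 of 124439 transcripts carried a gene symbol, so a gene whose symbol is absent may still have an unnamed transcript. The labels list 5 samples, all wild-type eye with no treatment or age given, and per the labels' protocols the library was pooled from 5 rats. The expression table holds 1 column of values with no sample named, so every level below is treated as that of 1 pool. The sources used here do not state whether that column holds all 5 samples. There is no replicate error, no comparison between groups and no test. Values in brackets are 95% intervals that cover counting error only.

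Aqueous humour is made by the ciliary body and leaves the eye mainly through the trabecular meshwork and Schlemm's canal. Resistance in this tract raises the pressure in the eye, and in glaucoma the axons of retinal ganglion cells are lost, often with raised pressure. The genes come from both ends of this path. Myoc, Cyp1b1, Cav1, Cav2 and Tmco1 are linked in people to outflow or eye pressure. Optn and Tbk1 are linked to glaucoma at normal pressure and act in the clearance of damaged organelles. Wdr36 was proposed as a glaucoma gene and works in ribosome assembly.

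Levels are given in FPKM, that is fragments divided by transcript length in kilobases and by the mapped total in units of 1000000, summed over the transcripts that carry a gene's symbol. The genes fell into a high and a low set. Cav1 was at 90.1 FPKM [88.6 to 91.6], Myoc at 85.0 FPKM [83.1 to 86.9], Optn at 76.3 FPKM [74.3 to 78.4], Cav2 at 66.9 FPKM [64.5 to 69.4] and Tmco1 at 46.97 FPKM [45.5 to 48.5]. Wdr36 was at 4.68 FPKM [4.38 to 5.00], Tbk1 at 4.04 FPKM [3.77 to 4.33] and Cyp1b1 at 3.53 FPKM [3.28 to 3.80]. The 5 high genes were above the median of all named genes, 6.50 FPKM, and the 3 low genes were below it. The gap between the sets, Tmco1 over Wdr36, was 10.04-fold [9.33 to 10.8], and 55.6% of all named genes lay inside it. The 3 low genes also had the longest transcripts, 2901 to 3203 nt, against at most 2395 nt in the high set. In fragments, with no division by length, the gap was narrower. The lowest of the high set was then Cav2 at 3540 (above 84.1% of named genes), and Wdr36 was at 882 (above 43.5%). All 8 genes reached 1 FPKM, as did 93.2% of named genes, so detection alone says little about them. At 5 FPKM and at 10 FPKM the count was 5 of 8 genes, against 59.8% of named genes at the lower and 34.0% at the higher threshold. The shares at 1 FPKM and 10 FPKM, 93.2% and 34.0%, also stand beside the list counts below.

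**Figure D1:**
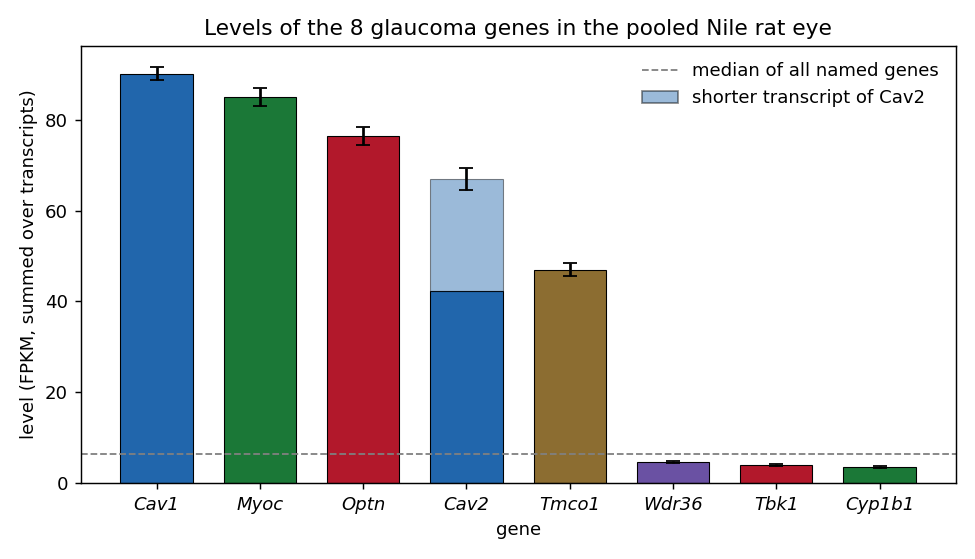
Bars give the level of each gene in FPKM, summed over transcripts, in the 1 pool. Error bars are 95% counting intervals, the pale part of the Cav2 bar is its shorter transcript, colours group genes by role, and the dashed line is the median of all named genes (6.50 FPKM). Cav1, Myoc, Optn, Cav2 and Tmco1 stand well above the line, and Wdr36, Tbk1 and Cyp1b1 just below it.

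In this order each gene, as summed, differed from the next by more than counting error, but most steps were small. Cav1 was 1.06-fold [1.03 to 1.09] above Myoc, and Myoc 1.11-fold [1.08 to 1.15] above Optn. Wdr36 was 1.16-fold [1.05 to 1.27] above Tbk1, and Tbk1 1.14-fold [1.04 to 1.26] above Cyp1b1. Without replicates, the order within each set cannot be set against variation between animals. As ranks, Cav1 lay above 97.4% of named genes, Myoc above 97.1%, Optn above 96.8%, Cav2 above 96.0% and Tmco1 above 93.4%. Wdr36 lay above 37.8%, Tbk1 above 33.1% and Cyp1b1 above 29.1%.

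**Figure D2:**
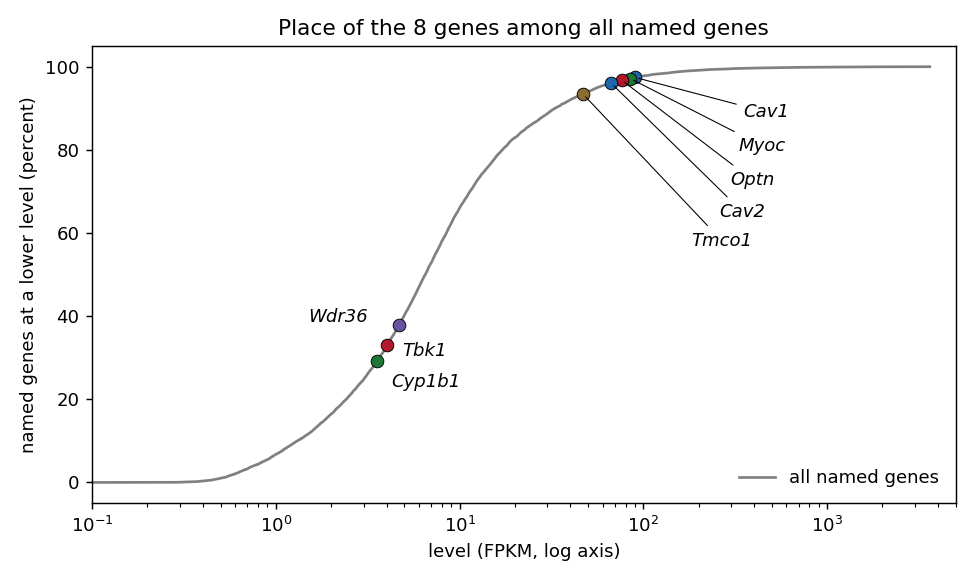
The grey line gives, for each level in FPKM on a log axis, the percent of the 13982 named genes at a lower level. Points mark the 8 genes, of which 5 lie at 93.4% or higher and 3 lie between 29.1% and 37.8%.

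Myoc encodes myocilin, a secreted glycoprotein with an olfactomedin domain that is abundant in the trabecular meshwork. Variants of it that misfold in the endoplasmic reticulum cause open-angle glaucoma in people. Its transcript of 1384 nt carried 7642 fragments and the symbol in mouse, rat and human. Myoc, which lay above 97.1% of all named genes, stood above every other measured gene with an olfactomedin domain. Olfm1, a secreted protein of neurons, was next at 59.2 FPKM, and Myoc was 1.44-fold [1.39 to 1.49] above it. Olfm2 was at 6.60 FPKM, and the lowest, Olfm4 and Olfml2b, were at 0.708 and 2.49 FPKM. The endoplasmic reticulum chaperones on the same list were higher than most of the family. Hspa5 was at 137.8 FPKM, Calr at 129 FPKM, Hsp90b1 (Grp94, which handles misfolded myocilin) at 106 FPKM and Pdia3 at 45.9 FPKM. Of the 17 listed genes 16 were measured, 15 of them reached 1 FPKM and 7 reached 10 FPKM, with a median of 7.40 FPKM. No transcript carried the symbol Gldn.

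Other markers of the trabecular meshwork were read beside Myoc. Of 10 listed markers all were measured, 9 reached 1 FPKM and 6 reached 10 FPKM, with a median of 37.5 FPKM. Timp3, an inhibitor of matrix proteases, was highest at 125 FPKM. Angptl7, a secreted protein linked to eye pressure, was at 91.2 FPKM, and Myoc was at 0.932 [0.903 to 0.960] of its level. Mgp, an inhibitor of calcification, was at 53.2 FPKM, Fmod (fibromodulin) at 49.4 FPKM, Pdpn (podoplanin) at 42.2 FPKM and Chil1 at 32.8 FPKM. Ppp1r1b (7.40 FPKM), Matn2 (6.37 FPKM), Edn3 (2.10 FPKM) and Rspo4 (0.886 FPKM) were lower. Several of these genes are also made outside the meshwork: Timp3 by the retinal pigment epithelium, Fmod by the sclera, and myocilin by the ciliary body, sclera and other ocular tissues. In RNA of whole eyes, fewer cells of a type and less RNA per cell cannot be told apart, and the cells that made a transcript are not seen.

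Cyp1b1 encodes a cytochrome P450 that metabolises steroids and retinoids, and its loss causes primary congenital glaucoma in people. It was the lowest of the 8 genes, at 1.84-fold below the median of named genes, and Myoc was 24.0-fold [22.3 to 25.9] above it. Its transcript of 3203 nt, the longest of the set, carried 735.5 fragments, so the low level did not rest on sparse counting. The ligand-activated receptor that induces CYP1 genes, Ahr, was at 0.824 FPKM [0.560 to 1.17] on a transcript of 579 nt, and Cyp1b1 was 4.29-fold [2.99 to 6.14] above it. Arnt, the receptor's partner, was at 7.05 FPKM, and the target genes Nqo1 and Tiparp at 18.4 and 8.38 FPKM. Por, the reductase that passes electrons to P450 enzymes, was at 5.27 FPKM, and Cyp1b1 stood at 0.671 [0.608 to 0.740] of its level. No transcript carried the symbols Cyp1a1, Cyp1a2 or Ahrr, so Cyp1b1 was not compared with other members of its family. Of the 6 measured genes on this list, 5 reached 1 FPKM and 2 reached 10 FPKM, with a median of 7.71 FPKM. At 10 FPKM that was 33.3%, near the 34.0% of all named genes.

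Cav1 and Cav2 encode caveolins, the coat proteins of caveolae, which are small pits of the plasma membrane that sense stretch and hold signalling proteins. The locus is associated with eye pressure and open-angle glaucoma in people, and in the RefSeq annotation of the Nile rat the 2 genes are direct neighbours. Cav1 rested on 1 transcript of 2395 nt with 14024.5 fragments, the most of the set. Cav2 rested on a transcript of 1052 nt at 42.2 FPKM [40.7 to 43.8], named in mouse and rat, and a transcript of 408 nt at 24.7 FPKM [22.9 to 26.7], named in human only. The shorter transcript held 37.0% of the Cav2 level and 18.5% of its fragments. Both had whole fragment counts, 2884 and 656, while the other 7 transcripts of the set had fractional counts. Isoforms would make the sum the right level, while pieces of a single assembled mRNA would make it an overestimate, and the table does not say which they are. Summed, Cav1 was 1.35-fold [1.29 to 1.40] above Cav2, a log2 ratio of 0.43. With the highest transcript alone the log2 ratio was 1.09, with a length-weighted mean 1.27, and in fragments 1.99. In each of these settings Cav1 was higher, and with the highest transcript or the length-weighted mean Cav2 (42.2 and 37.3 FPKM) stood below Tmco1.

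The partners of the caveolins were lower than Cav1, and lower than Cav2 as summed, as were 97.4% and 96.0% of all named genes. Of 8 listed genes all were measured and reached 1 FPKM, and 4 reached 10 FPKM, with a median of 11.1 FPKM. Cavin1, the coat protein needed to form caveolae, was highest at 50.02 FPKM, and Cav1 was 1.80-fold [1.75 to 1.86] above it, a log2 ratio of 0.85 that was 1.93 with a length-weighted mean. Cav2 was 1.34-fold [1.28 to 1.40] above Cavin1 as summed, but with the highest transcript of each gene Cav2 was at 42.2 FPKM and Cavin1 at 46.7 FPKM. Cavin3 was at 32.1 FPKM and Cavin2 at 6.28 FPKM, below Cav1 by 2.81-fold and 14.3-fold. The muscle members were Cav3 at 3.89 FPKM, 23.2-fold [20.5 to 26.2] below Cav1, and Cavin4 at 1.65 FPKM. The membrane-shaping proteins Pacsin3 (16.3 FPKM), Ehd2 (12.9 FPKM) and Pacsin2 (9.30 FPKM) lay between Cavin3 and Cavin2. The highest transcript of Pacsin3 alone was at 8.93 FPKM, below Ehd2 and Pacsin2.

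Caveolins are made in endothelium, muscle and fat as well as in the outflow tract, with Cav3 the muscle member named above. Markers of all of these tissues were in the pool. The 11 measured markers of vascular and Schlemm's canal endothelium lay between 2.81 FPKM (Vwf) and 12.9 FPKM (Kdr), with a median of 6.38 FPKM, and Prox1, a factor of lymphatic-like endothelium that lens and retina also make, was at 11.3 FPKM. Flt4 was named only by the rat column on the transcript counted as Kdr, and was not given a level. The 8 skeletal muscle markers lay between 2.64 FPKM (Actn3) and 174 FPKM (Tnnc2), with a median of 46.6 FPKM. The 5 adipocyte markers lay between 5.06 FPKM (Plin1) and 32.4 FPKM (Fabp4), with a median of 8.32 FPKM. The 4 measured markers of smooth muscle and pericytes lay between 4.12 FPKM (Pdgfrb) and 95.96 FPKM (Rgs5, 51.7 FPKM with its highest transcript alone), with a median of 11.4 FPKM, and no transcript carried the symbols Acta2, Myh11 or Tagln. No measured marker of these lists was at 0, but 124299 of all 124439 transcripts had a fragment, so this says little. The part of these or any other tissues of the eye in the levels of Cav1 and Cav2 was not tested.

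**Figure D3:**
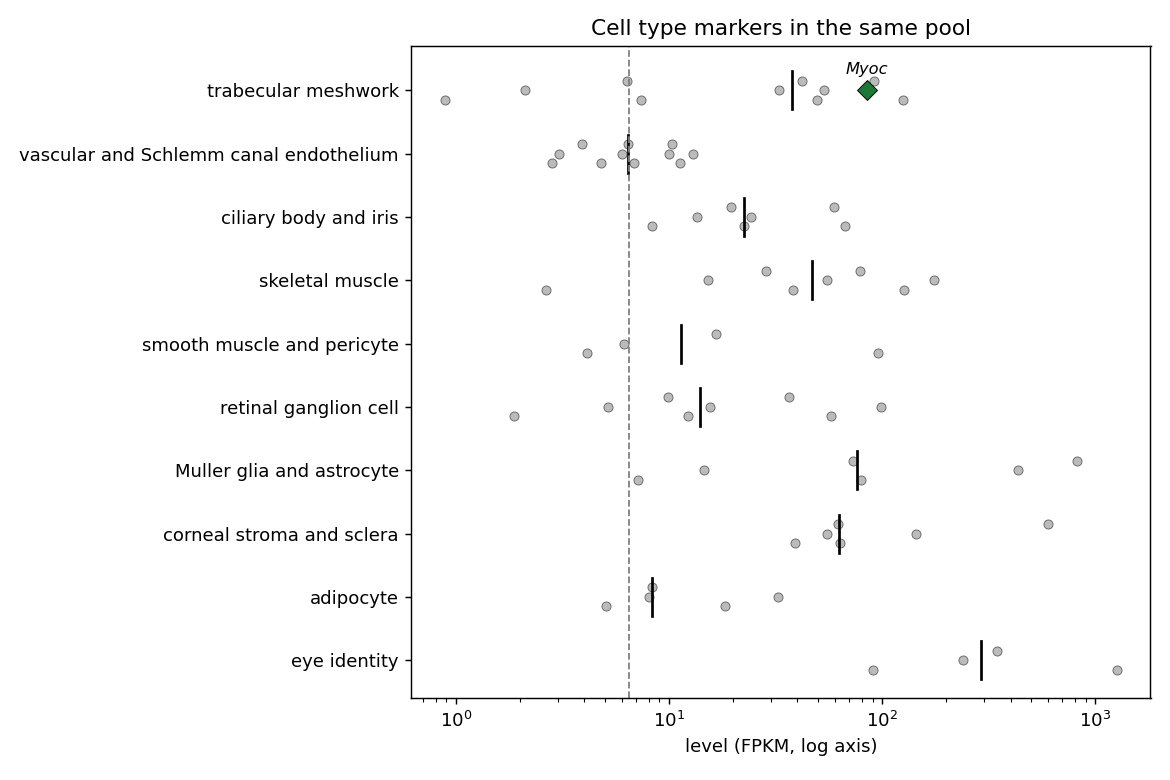
Each grey point is 1 measured marker gene, placed by its level in FPKM on a log axis, in 10 lists of cell type markers. Black bars are list medians, the dashed line is the median of all named genes, and the green diamond is Myoc (85.0 FPKM), which lies above the median of the trabecular meshwork list (37.5 FPKM). Endothelial markers lie around the dashed line.

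Optn encodes optineurin, a receptor that links ubiquitin-tagged cargo to the autophagy membrane, and Tbk1 encodes the kinase that phosphorylates it. Optn was 18.9-fold [17.5 to 20.3] above Tbk1, a log2 ratio of 4.24. Each gene rested on 1 transcript, and whether that transcript covered the whole mRNA was not checked. Counted in fragments, with no division by length, the log2 ratio was 2.77, since the Tbk1 transcript (3033 nt, 796.8 fragments) was longer than the Optn transcript (1099 nt, 5451 fragments). Other autophagy receptors lay on both sides of Optn. Sqstm1 (p62) was at 230.1 FPKM, summed over a transcript named in human and another named in mouse and rat, so that Optn stood at 0.332 [0.321 to 0.342] of it, a log2 ratio of -1.59. The higher Sqstm1 transcript alone was at 136.0 FPKM, and the log2 ratio was then -0.83, or -0.55 with a length-weighted mean. Tax1bp1 was at 83.8 FPKM, with Optn at 0.911 [0.884 to 0.939] of it, and Nbr1 was at 17.5 FPKM, with Optn 4.36-fold above it. Of the membrane proteins that these receptors bind, Gabarap was at 104 FPKM, Gabarapl1 at 92.5 FPKM and Gabarapl2 at 64.6 FPKM, and Map1lc3b and Map1lc3a were lower, at 45.6 and 22.4 FPKM.

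Tbk1 was set beside its relative and its adaptors. The related kinase Ikbke was among the lowest of the list at 1.64 FPKM, and Tbk1 was 2.47-fold [2.17 to 2.80] above it. Of the adaptors that hold the kinase, Tank was at 2.72 FPKM, Tbkbp1 at 5.75 FPKM and Azi2 at 7.69 FPKM. Tbk1 was 1.49-fold [1.31 to 1.69] above Tank, and at 0.704 and 0.526 of Tbkbp1 and Azi2. Sting1, which activates the kinase in innate immunity, was at 1.69 FPKM. Of the 22 listed partners 21 were measured, all reached 1 FPKM and 8 reached 10 FPKM, with a median of 9.20 FPKM. At 10 FPKM that was 38.1%, near the 34.0% of all named genes. No transcript carried the symbol of the receptor Calcoco2. Nbr1, Map1lc3a, Map1lc3b, Tank, Tbkbp1, Azi2 and, above, Olfm2 were named after their values were seen.

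Retinal ganglion cells, in which optineurin is studied in glaucoma, were represented by 8 markers between 1.86 FPKM (Pou4f2, named Pou4f3 in the human column) and 98.9 FPKM (Nefl, 58.3 FPKM with its highest transcript alone), with a median of 13.9 FPKM. The neuronal surface protein Thy1 was at 57.6 FPKM and Sncg (gamma-synuclein) at 36.5 FPKM. The rest were lower: Rbpms at 15.5 FPKM (11.8 FPKM with its highest transcript alone), Nefm at 12.3 FPKM, Isl1 at 9.82 FPKM and Pou4f1 at 5.15 FPKM. Pou4f1, like Pou4f2, was below the median of all named genes. Markers of Müller glia and astrocytes had a median of 76.2 FPKM over 6 genes, with Glul at 72.6 FPKM. They lay between 7.14 FPKM (Gfap, near the median of all named genes) and 818 FPKM (Apoe, on transcripts of at most 299 nt). Aqp4 was at 14.6 FPKM, Slc1a3 at 79.8 FPKM and Rlbp1 at 432 FPKM. Optn is widely expressed, and how much of its level came from any of these cells was not tested.

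Tmco1 encodes a membrane protein of the endoplasmic reticulum that takes part in the translocon for proteins with many membrane spans. Variants near it are associated with eye pressure in people. Its transcript of 1287 nt carried 3927 fragments and was named Tmco1 in mouse, MGC109554 in rat and nothing in human. Tmco1, which lay above 93.4% of all named genes, was above all 7 measured genes of the translocon list. That list had a median of 16.5 FPKM, and all 7 reached 1 FPKM and 5 reached 10 FPKM. Ccdc47, a subunit of the same complex, was nearest at 32.8 FPKM, and Tmco1 was 1.43-fold [1.38 to 1.49] above it. Tmem147 (18.3 FPKM), Nomo1 (14.3 FPKM) and Ncln (7.13 FPKM), which form another part of the complex, were below Tmco1 by 2.57-fold, 3.28-fold and 6.59-fold. The channel subunits Sec61b, Sec61a1 and Sec61g were at 23.2, 16.5 and 9.38 FPKM. No transcript carried the symbol Wdr83os.

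Wdr36 encodes a subunit of the UTP-B complex, which acts in the nucleolus in the maturation of the small ribosomal subunit. Its transcript of 2901 nt carried 881.9 fragments and was named Wdr36 in mouse only, with Ensembl identifiers in rat and human. As summed, Wdr36 was the lowest subunit of its complex, but the highest single transcript of Utp6, at 3.94 FPKM, was below it. The other 5 subunits, all measured, lay between 5.99 FPKM (Utp6) and 14.3 FPKM (Utp18), with Pwp2 at 6.29 FPKM, Wdr3 at 7.39 FPKM and Tbl3 at 8.51 FPKM. Wdr36 stood at 0.781 [0.718 to 0.851] of Utp6, 0.744 [0.685 to 0.808] of Pwp2 and 0.326 [0.302 to 0.353] of Utp18. Utp6 and Utp18 were each summed over a transcript named in human only and another named in mouse. The highest transcript of Utp18 alone was at 7.79 FPKM, below Tbl3, and the log2 ratio of Wdr36 over Utp18 was then -0.73, against -1.62 as summed.

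**Figure D4:**
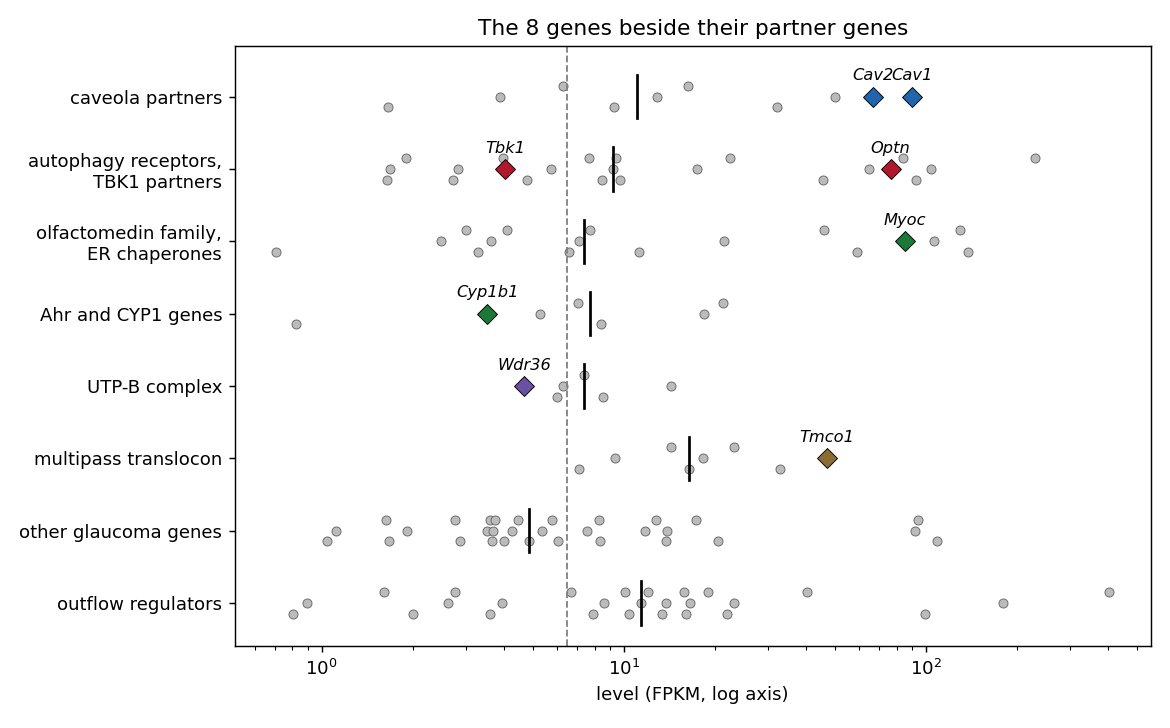
Each grey point is 1 measured gene of a partner list, placed by its level in FPKM on a log axis. Black bars are list medians, coloured diamonds are the 8 glaucoma genes in the row of their partners, and the dashed line is the median of all named genes. Cav1, Cav2 as summed, and Tmco1 lie right of all their partners, and each lies above at least 93.4% of all named genes. Wdr36 lies left of all of its own partners as summed. With the highest transcript of each gene Cav2 (42.2 FPKM) lies below Cavin1 (46.7 FPKM) and Utp6 (3.94 FPKM) below Wdr36.

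Other glaucoma genes were mostly lower than the high set, as were most named genes, of which 93.4% lay below Tmco1. Of 34 listed genes 31 were measured, all 31 reached 1 FPKM and 9 reached 10 FPKM. At 10 FPKM that was 29.0%, near the 34.0% of all named genes. The list median was 4.87 FPKM, below the 6.50 FPKM of all named genes. The highest were Efemp1 (fibulin-3, an extracellular matrix protein) at 109 FPKM, Gas7 at 94.1 FPKM, Pax6, the eye transcription factor, at 92.3 FPKM, Opa3 at 20.4 FPKM and Six6 at 17.4 FPKM. The lowest were Asb10 at 1.04 FPKM and Ntf4 at 1.11 FPKM. No transcript carried the symbols Tek, Cdkn2a or Atoh7. Of 29 listed regulators of outflow 27 were measured, 25 reached 1 FPKM and 16 reached 10 FPKM, with a median of 11.4 FPKM, and no transcript carried the symbols Piezo1 or Adora3. Sparc, a matrix protein, was highest at 403 FPKM, followed by the small GTPase Rhoa at 179.5 FPKM, the Wnt inhibitor Sfrp1 at 99.0 FPKM, Ccn2 at 40.3 FPKM and Gucy1a1, a subunit of the nitric oxide receptor, at 23.2 FPKM. Sfrp1 was summed over 2 transcripts, and was at 63.2 FPKM with the highest alone and at 35.8 FPKM, below Ccn2, without transcripts under 500 nt. The prostaglandin receptors Ptgfr, the target of a class of glaucoma drugs, and Ptger2 were lowest, at 0.804 FPKM [0.571 to 1.10] and 0.891 FPKM [0.720 to 1.09].

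The labelled tissue was checked on defining genes of the eye. Cryaa of the lens was at 1263 FPKM, and at 105 FPKM without transcripts under 500 nt, Gnat1 of rods at 344 FPKM, Rpe65 of the retinal pigment epithelium at 238 FPKM and Krt12 of the corneal epithelium at 90.96 FPKM. Markers of the ciliary body and iris had a median of 22.5 FPKM over 7 genes, led by Aqp1 at 66.8 FPKM and Car2 at 59.2 FPKM, and those of corneal stroma and sclera a median of 62.8 FPKM over 6 genes.

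**Figure D5:**
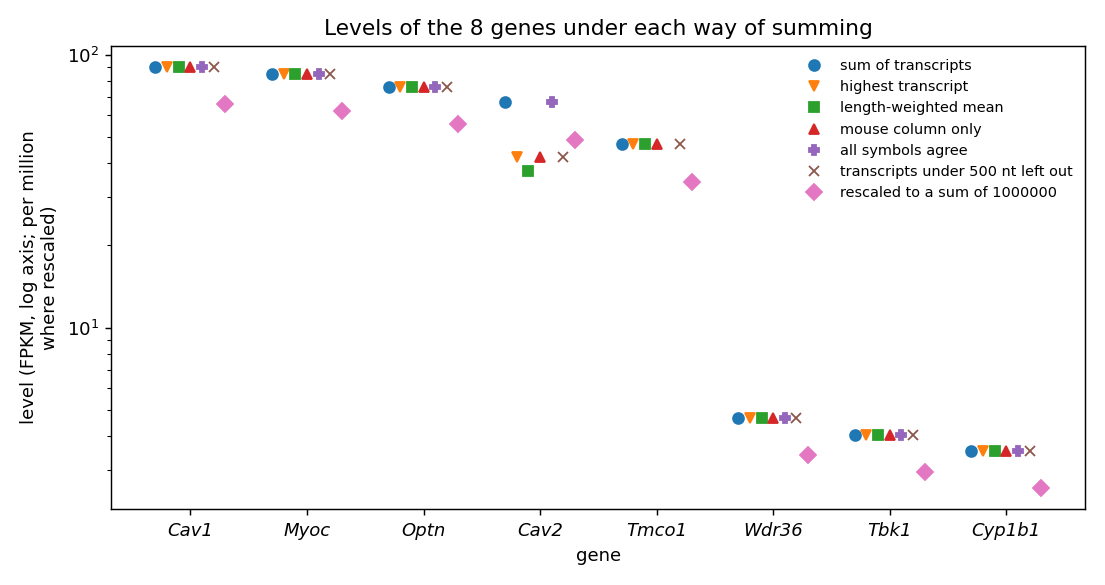
Points give the level of each gene on a log axis under each way of combining its transcripts, and after rescaling the table to a sum of 1000000. The 7 genes with 1 transcript move only with the rescaling, while Cav2 lies between 37.3 and 66.9 FPKM. Tmco1 has no point where all symbols must agree.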

How the data were processed

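Per the labels' protocols, the library was pooled from the RNA of 5 rats. Per the file headers, each of 124439 transcripts has an FPKM, an estimated count of fragments and a length, and 64967222 fragments were mapped. The deposited estimated counts are not scaled, and 39.3% are not whole, so fragments were divided between transcripts. They sum to 66703011, or 2.67% above the stated total. The FPKM deposited by the authors equals fragments divided by length and stated total for all 124299 transcripts with a fragment (relative tolerance 1e-05). Per the submitters' processing notes Bowtie was used. Its version, the assembly and any genome build were not given in the sources used here. No coordinates are printed. Per the file headers the ortholog tables hold names and identifiers, not measurements.

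Gene levels are summed FPKM over transcripts carrying the symbol in any species column. The named genes took the first symbol in the order mouse, rat, human. Intervals are gamma (Fay-Feuer) intervals for levels and delta-method intervals for ratios, both from Poisson fragments. They were tried only on counts drawn from the same Poisson model, which cannot show whether that model holds here. The intervals cover counting error only, since PCR copies are not independent molecules, and hold no error from the division of fragments. A count of 0 on 1000 nt allows up to 3 fragments, or 0.0462 FPKM. The 8 genes and the 8 partner and 10 marker lists were chosen with earlier results of these data known. Every measured gene of a list of at most 12 could be named, and the 5 highest and 2 lowest of a longer one. A listed gene that is not reported here by name enters the counts and medians. Ratios were formed for Cav1 over Cav2, Optn over Tbk1 and Myoc over each other gene of the 8. Ratios between neighbours in the order and to partner genes were added after seeing the data. Alternatives were the highest transcript, a length-weighted mean, mouse names only, agreeing symbols only, transcripts of at least 500 nt, rescaling, fragments, a pseudocount of 1 FPKM and other thresholds. The planned comparison with coding length was not made, so whether each transcript covers its whole mRNA is not known. Further pieces of a gene may sit among transcripts without a symbol. All 8 symbols matched the RefSeq gene table of the assembly mArvNil1.pat.X, used for gene neighbours only. Tables were read with pandas 2.3.3 and NumPy 2.4.6 under Python 3.11.15, intervals came from SciPy 1.17.1, and figures from Matplotlib 3.10.9.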

Additional observations from a re-analysis of the deposited data

How the results depend on the processing

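Of 129 values of the levels, the 9 ratios set at the start, the detected genes and the list medians under other settings, 37 lay outside the counting interval of the summed value (for the count of detected genes, beyond 1.5 times) and 92 did not. Much of this tally was fixed in advance. The 7 genes with 1 transcript keep 1 value however transcripts are combined, and rescaling moves every level by the same factor. Of the 9 ratios 0 changed direction, and only those to Cav2 could respond to how transcripts are combined. Rescaling to a sum of 1000000 gave Cav1 65.7, Myoc 62.0, Optn 55.7, Cav2 48.8, Tmco1 34.3, Wdr36 3.41, Tbk1 2.95 and Cyp1b1 2.58 per 1000000, by 1 common factor. Cav2 was at 42.2 FPKM with the highest transcript, with mouse names only and without transcripts under 500 nt, and at 37.3 FPKM with a length-weighted mean. In those settings the log2 ratio of Cav1 over Cav2 was 1.09 (1.27 with the length-weighted mean) and that of Myoc over Cav2 1.01 (1.19). In fragments, the log2 ratio was 1.99 for Cav1 over Cav2 and 2.77 for Optn over Tbk1. For Myoc it was 0.49 over Optn, 3.38 over Cyp1b1, 3.12 over Wdr36, 0.96 over Tmco1, -0.88 over Cav1, 1.11 over Cav2 and 3.26 over Tbk1. With 1 FPKM added it was 3.94 for Optn over Tbk1, and for Myoc 4.25 over Cyp1b1, 3.92 over Wdr36 and 4.09 over Tbk1. At 5 FPKM 5 of the 8 genes counted as detected. With the highest transcript the median was 9.12 FPKM for caveola partners, 7.69 FPKM for autophagy and TBK1 partners and 10.5 FPKM for outflow regulators. Among 108 alternative values of the 36 ratios to neighbours and partners, tried after seeing the data, 7 changed direction. The log2 ratio of Cav2 over Tmco1 was -0.15 with the highest transcript and without transcripts under 500 nt, and -0.33 with a length-weighted mean. That of Cav2 over Cavin1 was -0.15 with the highest transcript and -0.25 without transcripts under 500 nt. That of Wdr36 over Utp6 was 0.25 with the highest transcript and 0.56 with a length-weighted mean. Ranks among named genes, also tried after seeing the data, moved by at most 5.14 percentage points. Tmco1 had no value where all symbols must agree, since its rat name differs. Leaving out samples could not be done in 1 pool. No paired analysis was possible because the table has 1 column of values and names no sample. Depth limits little here, since the lowest count of the 8 genes was 735.5 fragments.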
